A study of Saccharomyces cerevisiae with 8 samples.

Results

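Trehalose and glycogen are the carbohydrate stores of budding yeast, and 10 genes that encode enzymes or enzyme subunits of their synthesis and breakdown were followed in Saccharomyces cerevisiae exposed to TFM. The genes were matched by symbol in the probe annotation, and the list was drawn up with earlier results of these data known: TPS1, TPS2, TPS3, TSL1, NTH1, GSY1, GSY2, GPH1, GLC3 and PGM2. All 10 had 1 probe set each, and they are 10 of the 5449 genes tested. No genome build is tied to the probe sets in the sources used here, so no coordinates are given, and no sequences were used.

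The groups, all of strain BY4741 in saturated YPD cultures at 30 °C with 2% isopropanol, were a control taken at time zero, just before TFM was added (n = 2), and 0.05 mM TFM for 1 h (n = 2), 2 h (n = 2) and 4 h (n = 1, a single RNA sample on 2 technical arrays). The labels do not spell TFM out; the abbreviation commonly stands for a fluorinated nitrophenol used against sea lampreys, which uncouples mitochondria. BY4741 is haploid and carries auxotrophic deletions in every group, control included. The probe sets of the deleted genes URA3, LEU2 and MET17 averaged 3.79, 5.89 and 4.58 on the log2 scale, all below percentile 0.48 of the genes tested. Later time points had no solvent control of their own, so exposure to TFM and elapsed time cannot be told apart in any comparison with time zero. Replicates are labelled biological, but separate cultures are not mentioned, and the p-values therefore reflect no more than the scatter among the RNA samples at hand.

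Trehalose is built from UDP-glucose and glucose 6-phosphate by a complex of a synthase, a phosphatase and regulatory subunits, and is split back to glucose by trehalases. Glycogen grows on a glycogenin primer by the action of glycogen synthase and a branching enzyme, and is degraded by phosphorylase and a debranching enzyme. Both stores accumulate in yeast as glucose runs out and growth stops, and many of their genes are known targets of the stress transcription factors Msn2 and Msn4.

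Signals are RMA values on a log2 scale. Of the 10 genes, 0 fell in the dimmest 25% of probe sets, and their mean signals lay between percentile 81.4 and percentile 99.4 of the genes tested. The percentile serves only as a check on the signal range, since signals of different probe sets do not rank the levels of their genes. Several of the 10 lay near the top of the array scale. TPS1 averaged 14.42, while on control replicate 1 the 95th percentile of signal was 13.62 and the highest signal 14.91. Whether changes are compressed at such signals was not tested, so the changes and intervals below are those of the signal.

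The changes in these genes were small at every time point. All but GLC3, 9 of the 10, had their lowest group mean after 1 h of TFM and their highest after 4 h, a pattern held by 21.7% of all genes tested. Against time zero, limma called 0 of the 10 at 1 h, where 4.99% of all genes passed at an adjusted p under 0.05, 0 at 2 h (0.11% of all genes) and 0 at 4 h (4.46% of all genes). The F test over the 3 time points also called 0 of 10, with 6.51% of all genes passing. Without adjustment, 3 of 10 had a p under 0.05 at 1 h (27.5% of all genes), 0 at 2 h (12.3% of all genes) and 2 at 4 h (19.8% of all genes). A single member passed in any comparison: GPH1, glycogen phosphorylase, was 1.38-fold higher at 4 h than at 1 h, where 11.7% of all genes passed. That call rests on 1 RNA sample at 4 h and did not pass under every alternative run.

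**Figure D1:**
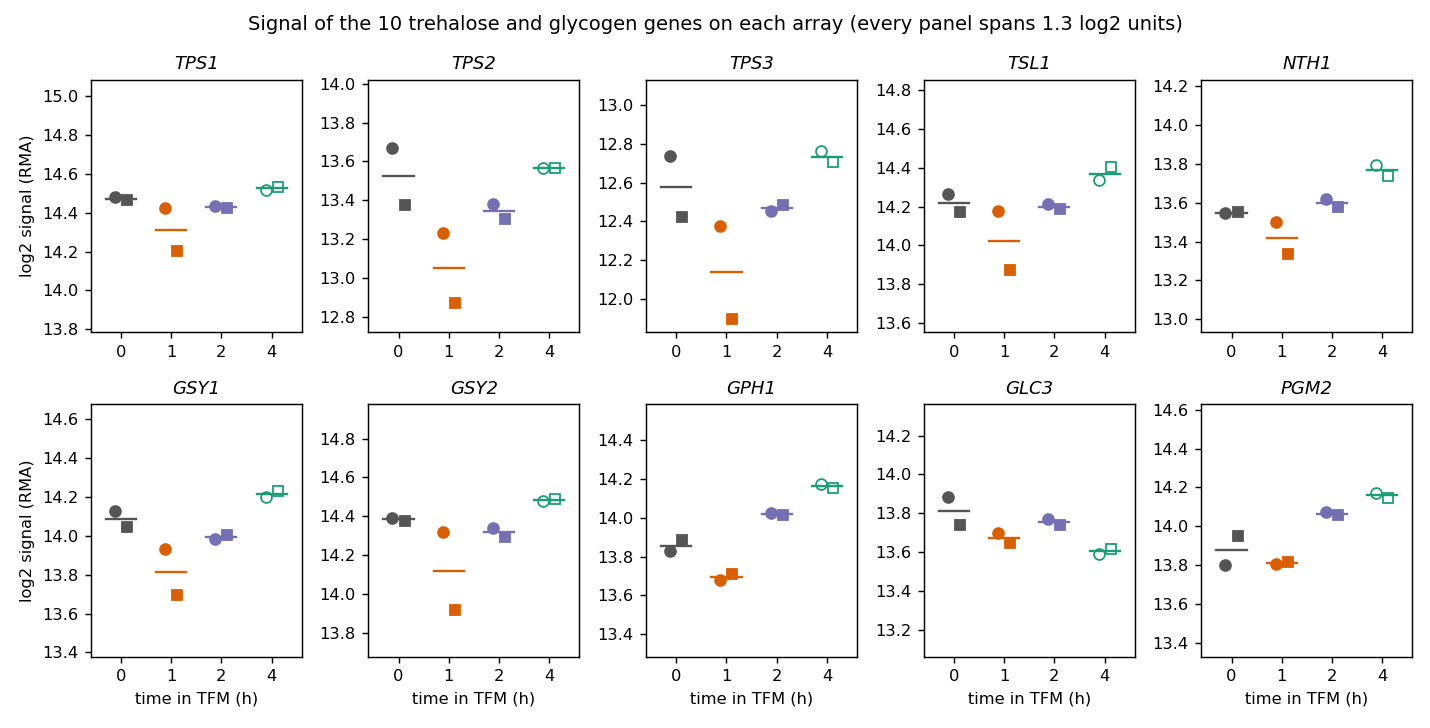
Log2 RMA signal (vertical axis) of each of the 10 genes at 0, 1, 2 and 4 h in TFM (horizontal axis). Circles are replicate 1, squares replicate 2 and lines their mean, and the open symbols at 4 h are technical arrays of 1 RNA sample. The lowest value of 7 genes is in replicate 2 at 1 h, GPH1 and PGM2 are higher at 2 h and 4 h than at time zero in every sample, and GLC3 is lowest at 4 h.

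Array measures are given here because they stand beside the results that follow. Ribosomal RNA, as the median of 17 probe sets, read 9.76 and 9.97 in the controls, 10.5 and 11.8 after 1 h, 11.4 and 13.0 after 2 h, and 12.2 and 12.1 for the 4 h sample. The mean difference between 3' and 5' probe sets of 7 control genes was 1.37 in control replicate 1 and between 1.11 and 1.21 on the other 7 arrays. Their part in the results was not tested. Replicates of the 10 genes differed most at 1 h, by a median absolute difference of 0.23, against 0.14 over all genes. At time zero that median was 0.087 for the 10 genes and 0.10 for all genes, and at 2 h it was 0.027 against 0.061. Within 1 h, replicate 2 was lower than replicate 1 for 8 of the 10.

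The genes of the trehalose synthase complex had the lowest values of the series in 1 h replicate 2. TPS1 (YBR126C), which makes trehalose 6-phosphate, read 14.48 and 14.46 in the controls, 14.42 and 14.20 after 1 h, 14.43 and 14.43 after 2 h, and 14.52 and 14.53 for the 4 h sample. Both 1 h values and both 2 h values lay below both controls, and the 4 h values lay above them. Its log2 change was -0.16 (SE 0.094) at 1 h, -0.04 (SE 0.094) at 2 h and 0.05 (SE 0.11) at 4 h, with adjusted p = 0.309, 0.897 and 0.832. The 95% interval at 4 h ran from -0.22 to 0.33.

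TPS2 (YDR074W), the phosphatase that completes trehalose synthesis, had the most negative change of the 10 at 1 h, which did not pass. It read 13.67 and 13.37 in the controls, 13.23 and 12.87 after 1 h, 13.38 and 13.30 after 2 h, and 13.56 and 13.57 for the 4 h sample. The 1 h samples lay below both controls, yet the controls themselves differed by 0.30 and the 1 h replicates by 0.36. The log2 change at 1 h was -0.47 (SE 0.15, 95% interval -0.83 to -0.11, adjusted p = 0.11), and it was -0.18 (SE 0.15) at 2 h and 0.04 (SE 0.18) at 4 h. Without control replicate 2 the 4 h change was -0.11, and without control replicate 1 it was 0.19.

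The regulatory subunits TPS3 (YMR261C) and TSL1 (YML100W), a related pair, had the same order of group means as TPS1 and TPS2, lowest at 1 h, then 2 h, time zero and 4 h. TPS3 read 12.74 and 12.42 in the controls, 12.37 and 11.90 after 1 h, 12.45 and 12.48 after 2 h, and 12.76 and 12.70 for the 4 h sample. At time zero and 1 h its spread was the widest of the 10, with SDs of 0.22 at time zero and 0.34 at 1 h (n = 2 each). TPS3 differed from time zero by -0.44 (SE 0.17, adjusted p = 0.167) at 1 h, -0.11 (SE 0.17) at 2 h and 0.15 (SE 0.21) at 4 h. TSL1 read 14.27 and 14.17 in the controls, 14.18 and 13.87 after 1 h, 14.21 and 14.19 after 2 h, and 14.33 and 14.40 for the 4 h sample. Its 1 h and control samples overlapped, and its change was -0.20 (SE 0.11, adjusted p = 0.307) at 1 h, -0.02 (SE 0.11) at 2 h and 0.15 (SE 0.14) at 4 h.

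NTH1 (YDR001C), the neutral trehalase that breaks trehalose down in the cytosol, also had its lowest mean at 1 h and its highest at 4 h, but its 2 h mean lay above time zero. It read 13.55 in both controls, 13.50 and 13.33 after 1 h, 13.62 and 13.58 after 2 h, and 13.80 and 13.74 for the 4 h sample. The 1 h samples lay below both controls and the 2 h and 4 h samples above them. The log2 change was -0.13 (SE 0.085, adjusted p = 0.351) at 1 h, 0.05 (SE 0.085) at 2 h and 0.22 (SE 0.10, 95% interval -0.03 to 0.47, adjusted p = 0.299) at 4 h.

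The glycogen synthase isoforms GSY1 (YFR015C) and GSY2 (YLR258W) had nearly the same changes at every time. GSY1 read 14.13 and 14.05 in the controls, 13.93 and 13.69 after 1 h, 13.98 and 14.00 after 2 h, and 14.20 and 14.23 for the 4 h sample. GSY2, the main isoform of the pair, read 14.39 and 14.37 in the controls, 14.32 and 13.92 after 1 h, 14.34 and 14.29 after 2 h, and 14.48 and 14.49 for the 4 h sample. For both, all 1 h and 2 h samples lay below both controls and the 4 h arrays above. At 1 h the changes were -0.27 (SE 0.0995, adjusted p = 0.146) for GSY1 and -0.27 (SE 0.13, adjusted p = 0.252) for GSY2, and at 4 h they were 0.13 (SE 0.12) and 0.10 (SE 0.16). GSY2 differed by 0.40 between the 1 h replicates. Since the isoforms are similar in sequence and the probes were not examined, how far each probe set reads its own gene alone is not known here.

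GLC3 (YEL011W), the glycogen branching enzyme, was the only one of the 10 with its lowest mean at 4 h. It read 13.88 and 13.74 in the controls, 13.70 and 13.65 after 1 h, 13.77 and 13.74 after 2 h, and 13.59 and 13.62 for the 4 h sample. Both 4 h arrays lay below all 6 other arrays, but the distance to time zero, -0.21 (SE 0.10, 95% interval -0.45 to 0.03), did not pass (adjusted p = 0.305). The change was -0.14 (SE 0.082) at 1 h and -0.06 (SE 0.082) at 2 h.

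GPH1 (YPR160W), which releases glucose 1-phosphate from glycogen, had the smallest F test p of the 10 (limma adjusted p = 0.0574). It read 13.83 and 13.88 in the controls, 13.68 and 13.71 after 1 h, 14.03 and 14.02 after 2 h, and 14.18 and 14.15 for the 4 h sample. The groups did not overlap: both 1 h samples lay below the controls, both 2 h samples above them, and the 4 h arrays above all others. Against time zero the changes were -0.16 (SE 0.072, adjusted p = 0.206) at 1 h, 0.16 (SE 0.072, adjusted p = 0.432) at 2 h and 0.31 (SE 0.088, adjusted p = 0.123) at 4 h. With a trended prior in limma the 4 h change passed (adjusted p = 0.0248). GPH1 rose by 0.47 (SE 0.088, 95% interval 0.26 to 0.68, adjusted p = 0.0278) at 4 h relative to 1 h. As in every test at 4 h, that arm is 1 RNA sample, whose spread was not measured and is assumed to be like that of the other groups. That call did not pass in a fit of the 1 h and 4 h groups alone (adjusted p = 0.167) or without either 2 h replicate (adjusted p = 0.0915 in each case), while the size stayed between 0.44 and 0.48 under every alternative run.

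PGM2 (YMR105C), the main phosphoglucomutase, links glucose 1-phosphate to glucose 6-phosphate, and its changes at 2 h and 4 h were near those of GPH1. It read 13.80 and 13.95 in the controls, 13.81 and 13.82 after 1 h, 14.07 and 14.06 after 2 h, and 14.17 and 14.14 for the 4 h sample. The 2 h and 4 h samples lay above both controls, while the 1 h samples lay between the controls. The change was -0.06 (SE 0.082, adjusted p = 0.652) at 1 h, 0.19 (SE 0.082, adjusted p = 0.424) at 2 h and 0.28 (SE 0.10, 95% interval 0.04 to 0.53, adjusted p = 0.188) at 4 h.

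**Figure D2:**
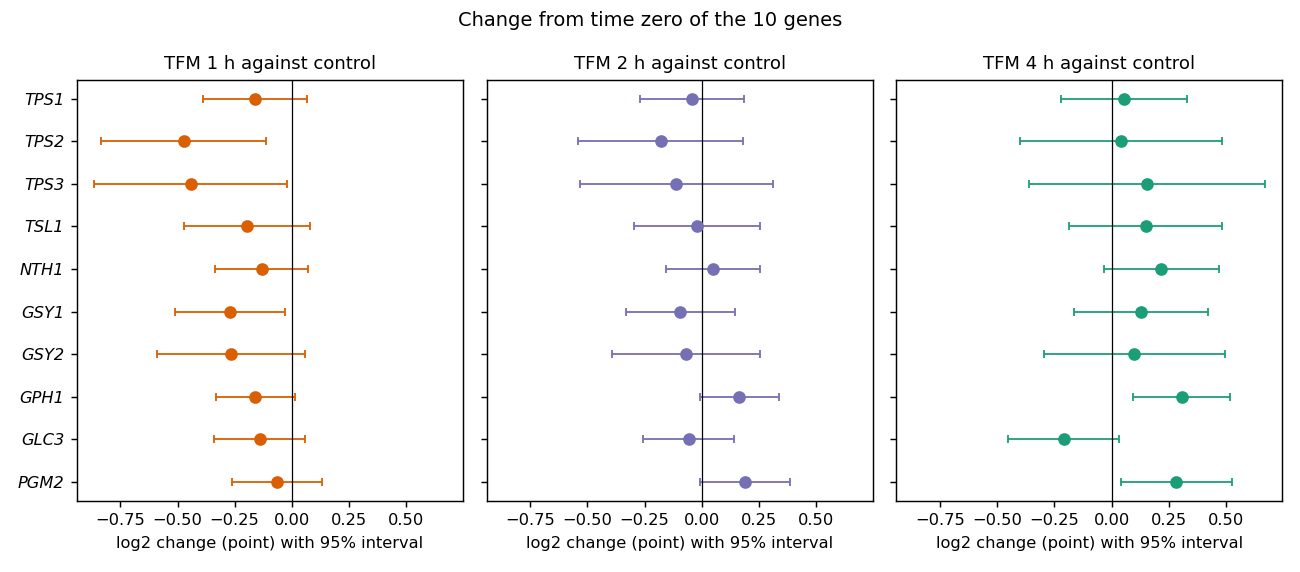
Log2 change from time zero (horizontal axis) of the 10 genes at 1, 2 and 4 h in TFM, with points for limma's estimate and bars for its unadjusted 95% interval. At 1 h all 10 points are below 0 and 3 intervals leave out 0, at 2 h all 10 intervals hold 0, and at 4 h only GPH1 and PGM2 have intervals above 0.

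At 1 h all 10 genes had a log2 change below 0, as did 55.9% of all genes, and their median was -0.18, against -0.03 over all genes. For 8 of the 10, all but TSL1 and PGM2, both 1 h samples lay below both controls, as they did for 32.2% of all genes. The size of the shift depended on the 1 h replicate. Without 1 h replicate 2 the median of the 10 was -0.09, and without 1 h replicate 1 it was -0.31. With replicate 1 left out, TPS2 (-0.65, adjusted p = 0.0399), TPS3 (-0.68), TSL1 (-0.35), GSY1 (-0.39) and GSY2 (-0.47) passed, in a fit that assumes the lone sample varies like the other groups and in which 18.4% of all genes passed. In 1 h replicate 2 the lowest value of the 7 RNA samples was found for 7 of the 10 genes, and for 30.0% of all genes.

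At 4 h the median of the 10 was 0.14 relative to time zero, against -0.0027 over all genes. Of the 10, 9 were above 0, as were 49.4% of all genes. The 4 h sample lay above both controls for 7 of 10, as it did for 38.4% of all genes. The 95% intervals are unadjusted and hold for each gene separately. Those at 4 h rest on 1 RNA sample whose spread is assumed to be like that of the other groups. Over the 3 comparisons with time zero, the 95% intervals of the 10 genes lay between -0.86 (TPS3 at 1 h) and 0.67 (TPS3 at 4 h). A 2-fold change in signal from time zero, in either direction, lay outside each of them.

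Between neighbouring time points in TFM none of the 10 genes passed. From 1 h to 2 h all 10 changes were above 0, as were 53.0% of all genes, with a median of 0.19 against 0.01 over all genes. In limma 0 passed (2.64% of all genes did), with 2 at an unadjusted p under 0.05 (22.3% of all genes). Both 2 h samples lay above both 1 h samples for 9 of 10, all but GSY2, and for 28.6% of all genes. The largest of these was TPS3 at 0.33 (SE 0.17), while GPH1 at 0.33 (SE 0.072, adjusted p = 0.0675) had the smallest adjusted p. From 2 h to 4 h the median was 0.17, against 0.03 over all genes. In limma 0 of 10 passed (0.863% of all genes), 0 had an unadjusted p under 0.05 (12.1% of all genes), and GLC3 stood at -0.15 (SE 0.10).

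Of the 6 comparisons, that of 4 h with 1 h had the largest median change, 0.36 for the 10 genes against 0.02 over all genes. Of the 10, 9 were above 0, as were 52.8% of all genes, and 7 had an unadjusted p under 0.05, as did 33.4% of all genes. In limma 1 of 10 passed after adjustment, GPH1, when 11.7% of all genes did. TPS3 stood at 0.60 (SE 0.21, adjusted p = 0.112), TPS2 at 0.52 (SE 0.18, adjusted p = 0.11), GSY1 at 0.40 (SE 0.12, adjusted p = 0.0776), NTH1 at 0.35 (SE 0.10, adjusted p = 0.0739) and PGM2 at 0.35 (SE 0.10, adjusted p = 0.0701). Genes of synthesis and of breakdown lay on the same side, with GLC3 at -0.07 the exception. The median was 0.27 without 1 h replicate 2 and 0.48 without 1 h replicate 1, and 8 of 10 passed in the second case, all but GLC3 and PGM2, when 24.4% of all genes did. In this comparison the intervals reached 1.11 (TPS3), so they do not leave out a 2-fold change.

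**Figure D3:**
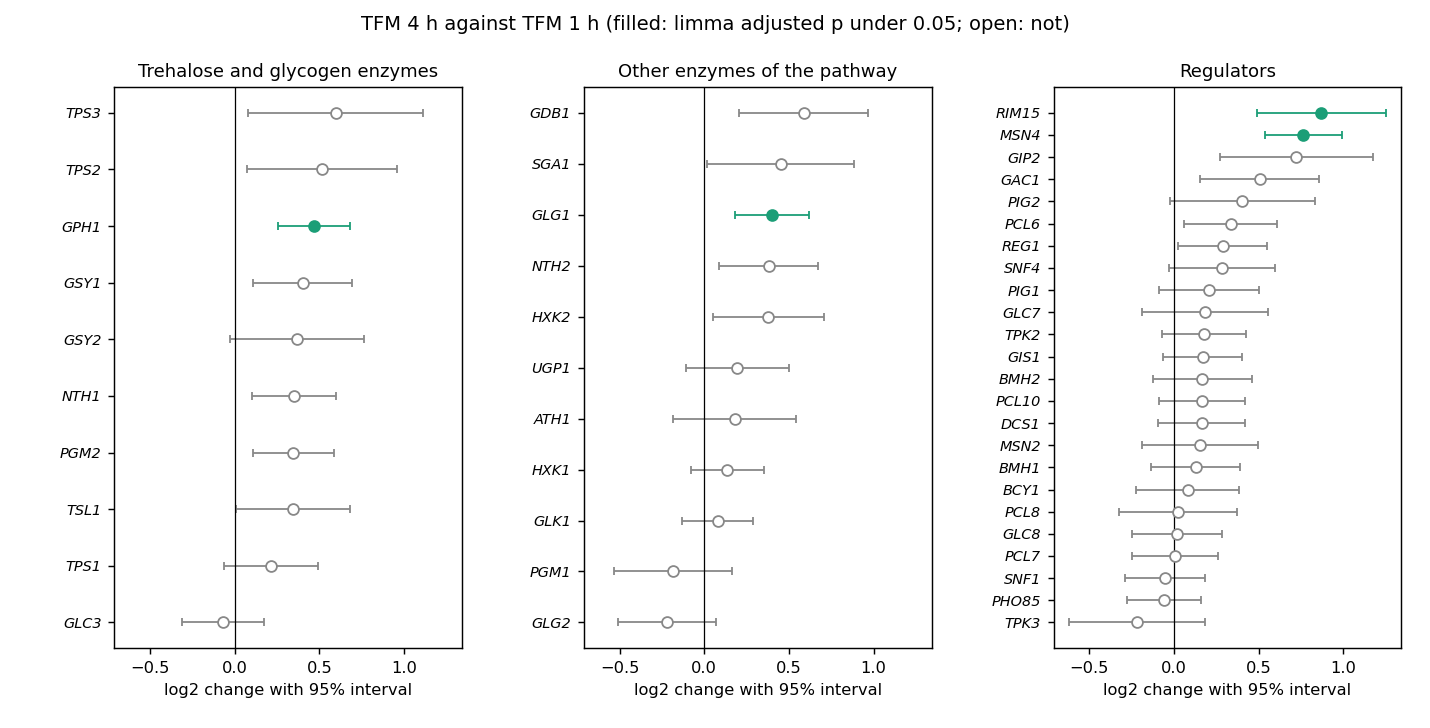
Log2 change of 4 h relative to 1 h in TFM (horizontal axis, unadjusted 95% intervals) for the 10 genes, 11 other enzymes of the pathway and 24 regulators. Filled points passed limma's adjusted p under 0.05: GPH1, GLG1, RIM15 and MSN4.

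Likeness among the genes was read from Pearson r over the 7 RNA samples, given as a description of values that share arrays and normalisation. TPS1, TPS2, TPS3, TSL1, GSY1 and GSY2 correlated with each other at Pearson r from 0.91 (TPS2 with GSY2) to 0.998 (TPS1 with GSY2). All of these genes had their lowest value in 1 h replicate 2. How far that sample sets these correlations was not tested, and those of other gene pairs were not computed for comparison. GPH1 and PGM2 correlated at 0.96. NTH1 lay between, at 0.88 with GPH1, 0.92 with TSL1 and 0.78 with TPS2. GLC3 reached no more than 0.48, with TPS2, and was at -0.34 with PGM2. Among 4128 other genes above the 25th percentile of signal, those most like GPH1 were EPO1 (0.987), APC2 (0.972), GSP2 (0.972), YCT1 (0.966) and RNY1 (0.966). In that order PGM2 ranked 11 and NTH1 145, and the remaining members ranked from 736 (GSY1) to 2633 (GLC3).

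Other enzymes of the same routes gave 1 call among 11 genes over the 3 comparisons with time zero and that of 4 h with 1 h. The call was at 4 h relative to 1 h, where 11.7% of all genes passed. GLG1, a glycogenin that primes glycogen, read 12.07 and 12.07 on the 4 h arrays, against 11.65 and 11.69 at 1 h, and rose by 0.40 (SE 0.091, adjusted p = 0.0417). It was chosen after its value was seen, and the call did not pass when either control, either 2 h replicate or 1 h replicate 2 was left out (adjusted p from 0.0518 to 0.12), or in a fit of the 2 groups alone (adjusted p = 0.225). GLG2, its partner, stood at -0.22 in the same comparison. GDB1, the debranching enzyme that acts with phosphorylase, stood at 0.30 (SE 0.16, adjusted p = 0.338) at 4 h relative to time zero. Against time zero 0 of 11 passed in limma at 1, 2 or 4 h, where 4.99%, 0.11% and 4.46% of all genes did. Each time 2 of 11 had an unadjusted p under 0.05, as did 27.5%, 12.3% and 19.8% of all genes. The medians of the 11 were -0.18, 0.01 and 0.06.

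PGM1, the minor phosphoglucomutase, and PGM2 had changes of opposite sign at 2 h and 4 h, a difference that was not tested. PGM1 read 10.82 and 10.77 in the controls, 10.61 and 10.30 after 1 h, 10.36 and 10.50 after 2 h, and 10.26 and 10.28 for the 4 h sample, so that every treated sample lay below both controls. At 4 h its change was -0.52 (SE 0.14, adjusted p = 0.117), beside 0.28 for PGM2, and neither passed. The related trehalase NTH2, like GLG2 named for its relation to another gene after its values were seen, stood at -0.17, -0.01 and 0.21 at 1, 2 and 4 h, beside -0.13, 0.05 and 0.22 for NTH1.

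The 24 regulators measured include the Glc7 phosphatase and its targeting subunits, Pho85 cyclins, Snf1, protein kinase A and stress transcription factors. Against time zero 1 of 24 passed at 4 h, where 4.46% of all genes did. At 1 h (4.99% of all genes) and 2 h (0.11% of all genes) 0 of 24 passed. MSN4, a stress transcription factor, read 10.82 and 10.86 in the controls, 10.85 and 10.77 after 1 h, 11.15 and 11.21 after 2 h, and 11.62 and 11.52 for the 4 h sample. It rose by 0.73 (SE 0.094, adjusted p = 0.0178) at 4 h, a 1.66-fold change, again with 1 RNA sample at 4 h and its spread assumed. The call did not pass without either control replicate or either 2 h replicate (adjusted p from 0.0524 to 0.0802), or in a fit of the control and 4 h groups alone (adjusted p = 0.0963). Its relative MSN2, also named after its values were seen, stood at -0.42, -0.45 and -0.26 at 1, 2 and 4 h (adjusted p = 0.0834, 0.212 and 0.357).

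At 4 h relative to 1 h 2 of the 24 regulators passed, when 11.7% of all genes did. RIM15, a kinase of the stationary phase program, rose by 0.87 (SE 0.16, adjusted p = 0.0256) at 4 h relative to 1 h, as did MSN4 by 0.76 (SE 0.094, adjusted p = 0.0118), and RIM15 was chosen after its value was seen. RIM15 read 9.82 and 9.50 after 1 h and 10.52 and 10.54 for the 4 h sample. Its mean signal was dim, at percentile 25.4 of the genes tested. The RIM15 call did not pass without either 2 h replicate (adjusted p = 0.0688) or in a fit of the 2 groups alone (adjusted p = 0.0558). PIG2, a putative targeting subunit of Glc7, stood at 0.47 (SE 0.18, adjusted p = 0.215) at 4 h relative to time zero. The regulators' median was -0.01 at 1 h, 0.04 at 2 h and 0.13 at 4 h.

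**Figure D4:**
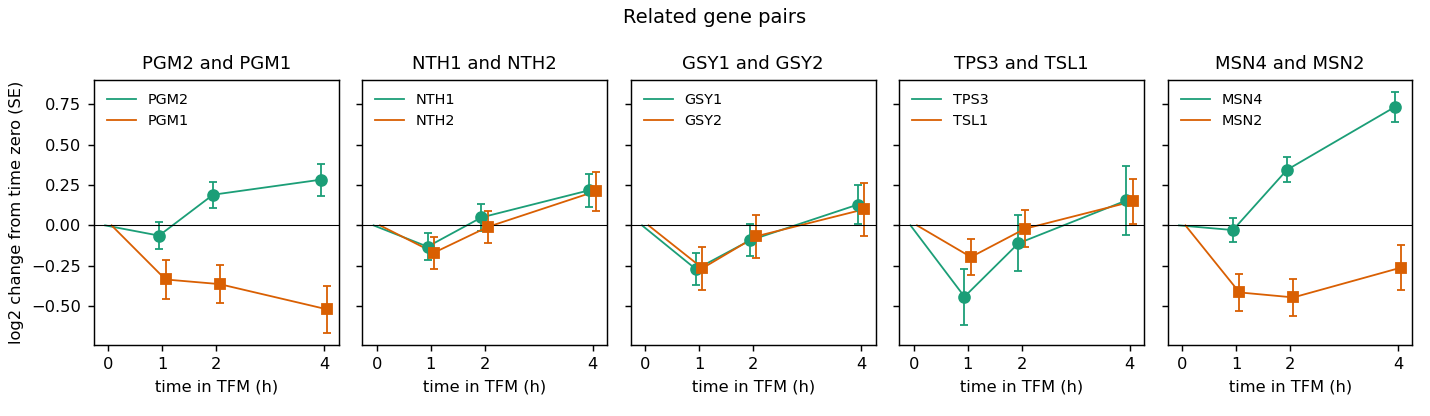
Log2 change from time zero (vertical axis, points with limma's standard errors) at 1, 2 and 4 h in TFM (horizontal axis) for 5 pairs of related genes, with lines starting at 0 by definition. GSY1 and GSY2, and NTH1 and NTH2, run close together, whereas PGM2 and MSN4 lie above time zero at 2 h and 4 h and PGM1 and MSN2 below it.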

How the data were processed

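The authors' deposited values are log2 signals, 1 per probe set and array, made by RMA per the submitters' processing notes, with no version given; the log base is judged from their range. Per the labels' protocols, biotin-labelled cRNA from total RNA was hybridised to 1-colour arrays. RMA equalises signal distributions across arrays, which hides any shift shared by most transcripts. Of 5814 probe sets, 5498 had 1 gene name in the platform annotation and 0 had several; 12 symbols were updated, and for 47 genes the brightest probe set was kept, leaving 5449 genes. Arrays at 4 h were averaged. limma 3.58.1 in R 4.3.3 (lmFit, eBayes, Benjamini-Hochberg within each comparison) was fitted to all genes and 7 RNA samples, with 3 residual and 3.36 prior degrees of freedom. The fit was tested on simulated data. Array number limits the precision. Alternatives were 2 scalings, a filter on dim genes, a trended prior, fits of the compared groups alone, a replicate block and leaving out each array. A fit of the time zero, 1 h and 2 h samples without the block was added after the data were seen. All 10 members were named. Other genes were named where they passed against time zero or were among the 2 largest changes of their list at 4 h, and 5 for likeness to the member with the smallest F test p; GLG1, GLG2, NTH2, MSN2, RIM15, UGP1, SGA1 and the hexose kinases fall outside that rule and were chosen after their values were seen. A planned promoter motif search was not run. Members and lists were chosen with earlier results of these data known.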

Additional observations from a re-analysis of the deposited data

Results flagged for a closer look

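GPH1 differed between time points in TFM: its change from time zero was 0.31 at 4 h and -0.16 at 1 h, and limma's test of that difference gave 0.47 (adjusted p = 0.0278). The 4 h value comes from 1 RNA sample.

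For GPH1 and NTH1, both 2 h samples lay above both controls and both 1 h samples lay below them. Taken singly, 21.1% of all genes had both 2 h samples above the controls and 32.2% had both 1 h samples below. The share of all genes with both features was not counted. The difference of 2 h from 1 h was 0.33 for GPH1 (limma adjusted p = 0.0675) and 0.18 for NTH1 (limma adjusted p = 0.271), and neither passed. The ribosomal RNA signal was higher than at time zero (9.76 and 9.97) on the 1 h arrays (10.5 and 11.8) as well as the 2 h arrays (11.4 and 13.0). Its part was not tested.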

How the results depend on the processing

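Counts of members called changed most for 4 h against 1 h, the only comparison with a call in the main fit. With 1 array left out, they ranged from 0 to 5 at 1 h, 0 to 0 at 2 h and 0 to 0 at 4 h against time zero, 0 to 1 for 2 h against 1 h, 0 to 0 for 4 h against 2 h, 0 to 8 for 4 h against 1 h and 0 to 1 in the F test. The highs came without 1 h replicate 1, and the 0 for 4 h against 1 h without either 2 h replicate. A trended prior gave 1 at 4 h, 1 for 2 h against 1 h, 4 for 4 h against 1 h and 2 in the F test. In each of these tests the trended prior also called more of all genes than the main fit did. Genes above the 25th percentile gave 2 for 4 h against 1 h and 1 in the F test, and a fit of the compared groups alone gave 0 for 4 h against 1 h, having fewer samples. The calls over all genes, 272 at 1 h, 6 at 2 h, 243 at 4 h, 144 for 2 h against 1 h, 47 for 4 h against 2 h, 639 for 4 h against 1 h and 355 in the F test, ranged over the alternatives from 1 to 1005, 0 to 43, 1 to 353, 0 to 563, 0 to 647, 100 to 1327 and 1 to 836 in that order.

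The replicate block, over time zero, 1 h and 2 h, gave 1 call at 1 h, TPS2 (-0.47, adjusted p = 0.0406), and 0 at 2 h and for 2 h against 1 h; it moved the calls over all genes at 1 h to 494, against 272 without it. The numbers are not stated to pair samples, and the deviations of same-numbered samples correlated at 0.096, 0.19 and 0.033. The block was not run for 4 h or the F test, with 1 RNA sample at 4 h.

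Of 360 member changes recomputed under other alternatives, 1 changed sign: TSL1 at 2 h, 0.00962 after median centring. Only the 2 scalings could move these changes, because the other alternatives keep the same differences of group means. The absence of sign changes under those others therefore carries no information. With 1 array left out, 7 of 480 changed sign, and only arrays of the 2 groups compared could move a change. The ranges were -0.13 to 0.014 for GLC3, -0.27 to 0.047 for TPS3 and -0.068 to 0.026 for TSL1 at 2 h, -0.11 to 0.19 for TPS2 and -0.0031 to 0.31 for TPS3 at 4 h, -0.14 to 0.012 for PGM2 at 1 h, and -0.0041 to 0.40 for GSY2 between 1 h and 2 h. None of these had passed. Of the 10 genes, 0 were below the 25th percentile of signal. Neither 4 h array alone changed a member count.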

Other observations

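Enzymes that feed both stores, named after their values were seen, missed limma's adjusted threshold in each of the 6 comparisons. UGP1, which makes the UDP-glucose used for trehalose and glycogen, read 14.17 and 14.10 in the controls, 14.07 and 13.81 after 1 h, 14.03 and 14.04 after 2 h, and 14.11 and 14.16 for the 4 h sample, so its 2 h samples lay below both controls. The hexose kinases HXK1 and GLK1, which supply glucose 6-phosphate, stood at 0.12 and 0.06 at 4 h relative to time zero. HXK2 stood at 0.20, and SGA1, a glucoamylase known from sporulating cells, at -0.59 at 1 h (limma adjusted p = 0.0672). None of these 4 changes passed.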
